A study of Mus musculus with 12 samples.

Results

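The glucocorticoid receptor gene Nr3c1 and 6 genes that the receptor is known to induce directly (Fkbp5, Tsc22d3, Sgk1, Dusp1, Zfp36 and Errfi1) were followed across plated mouse hepatocytes labelled as control or as knockout (KO) for the REV-ERB nuclear receptors. The members were chosen by name: all 7 were found among the 37991 genes of the deposited table, each in a single row, and all 7 passed the filter on low values (at least 1 FPKM in at least 3 libraries, met by 11213 genes). FPKM is the number of fragments scaled by transcript length and by the mapped fragments of the library, so levels can be compared between genes.

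RNA was sequenced from 12 libraries in 4 groups of 3. The mice were 10-week-old males with loxP sites in Nr1d1 and Nr1d2, the genes of REV-ERBα and REV-ERBβ, given an AAV8 virus 2 weeks before. In the control groups the virus carried GFP under TBG, a promoter active in hepatocytes. In the groups labelled KO it carried Cre recombinase with GFP under the same promoter, so effects of Cre and of REV-ERB loss cannot be told apart. The cells were plated on collagen in DMEM with fetal bovine serum and given DMSO, the solvent, or 10 µM SR9009, a synthetic REV-ERB agonist, for 8 h. The labels name no added glucocorticoid. They do not say whether the replicates were separate mice, so the spread behind the p-values may be technical and they speak for these libraries alone.

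Glucocorticoids enter the cell and bind the glucocorticoid receptor, which waits in the cytoplasm in a complex with HSP90 chaperones. The receptor then moves to the nucleus and binds response elements in DNA. In liver it drives fasting metabolism and restrains inflammation. Among its targets, Fkbp5 encodes a co-chaperone that lowers the receptor's affinity for hormone, and thus closes a feedback loop. Tsc22d3 encodes GILZ, a leucine zipper protein that dampens inflammatory transcription, and Sgk1 a kinase induced by serum and glucocorticoids. Dusp1, Zfp36 and Errfi1 encode brakes on signalling: a phosphatase of MAP kinases, a protein (tristetraprolin) that destabilises messenger RNAs with AU-rich elements, and an inhibitor (MIG6) of the EGF receptor. These brakes are also induced by serum, growth factors and stress.

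The library facts that touch these genes were the following. Relative depth, read from the smallest steps between low values, was lowest in control SR9009 replicate 1 (55.5% of control DMSO replicate 1) and in KO-labelled DMSO replicate 1 (63.4%), and 77.0% to 92.3% in the others. The whole-gene level of Nr1d1 was 18.3 to 19.0 FPKM in control DMSO and 17.4 to 18.3 FPKM in KO-labelled DMSO, and that of Nr1d2 was 13.9 to 17.4 and 16.1 to 16.3 FPKM. Under SR9009, Nr1d1 was higher in KO-labelled than in control cells (22.1 ± 0.490 and 19.5 ± 0.565 FPKM, log2 change 0.17, limma adjusted p = 0.0429), and SR9009 raised it in KO-labelled cells (log2 change 0.30, adjusted p = 0.00472). Nr1d2 passed in no comparison. No loss of either gene was thus seen at this level. Which exons were removed is not stated in the labels, and these levels span whole gene models, so they do not check the labels. "Deletion" below means the KO-labelled against the control groups. Of the hepatocyte markers, Alb stood at 18369 FPKM or above in every library, while the summed level of 10 Kupffer cell (liver macrophage) markers was 34.7 to 59.7 FPKM and that of 5 lymphocyte markers at most 0.516 FPKM.

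Across the 7 genes, the targets split into separate patterns and the receptor gene passed in none of the comparisons. SR9009 lowered Fkbp5 and Tsc22d3 in both genotypes and raised Dusp1 in both. REV-ERB deletion lowered Dusp1 and Zfp36 and raised Sgk1. In control cells SR9009 raised 1 of the 7 genes and lowered 2, against 8.24% of all tested genes changed. In KO-labelled cells it raised 1 and lowered 3, against 9.87%. Deletion raised 1 and lowered 2 in DMSO, against 20.0% of all genes, and raised 1 and lowered 4 under SR9009, against 20.4%. The share of calls under SR9009 that were higher in KO-labelled cells was 63.5% over all genes, and 48.2% when each library was scaled by its median ratio. The median log2 change of the 7 genes was -0.18 with SR9009 in control, -0.22 with SR9009 in KO-labelled cells, -0.08 with deletion in DMSO and -0.18 with deletion under SR9009. Over all tested genes these medians were -0.02, 0.00, 0.04 and 0.06. The groups compared did not overlap for 25.0% of all tested genes with SR9009 in control and 32.3% with SR9009 in KO-labelled cells. The share was 41.2% with deletion in DMSO and 34.9% with deletion under SR9009. All calls are from 1 limma fit over the 12 libraries with Benjamini-Hochberg adjusted p under 0.05. The comparisons share groups: control DMSO serves both SR9009 in control and deletion in DMSO.

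**Figure D1:**
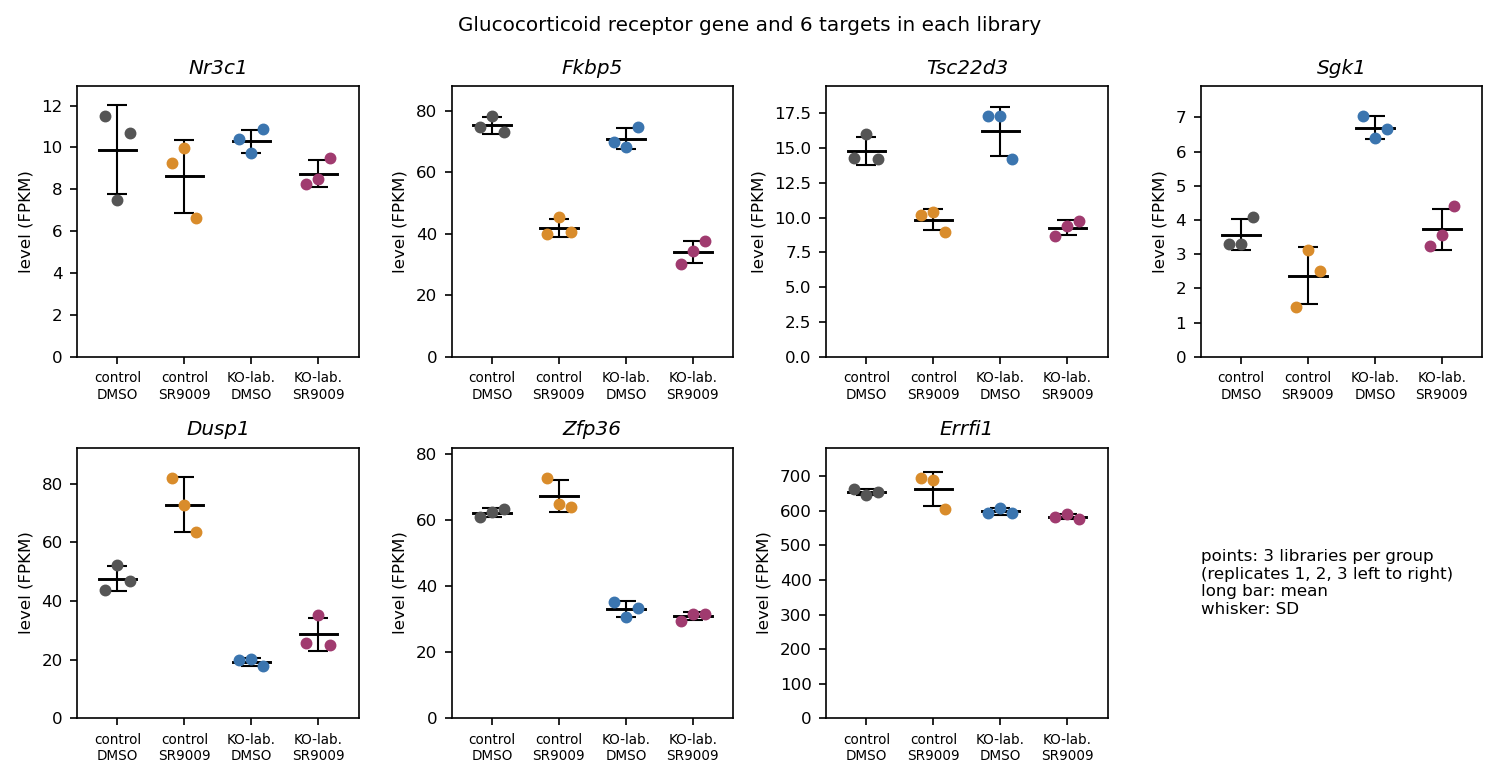
Level in FPKM (vertical axes, from 0) of each gene in the 12 libraries, by group (horizontal axes); points are libraries, long bars means and whiskers SDs of 3 libraries. Fkbp5 and Tsc22d3 were lower in all SR9009 libraries than in any DMSO library, and Zfp36 was 29.5 to 35.3 FPKM in KO-labelled libraries and 60.8 to 72.8 FPKM in control ones.

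The receptor gene itself, Nr3c1 (ENSMUSG00000024431, mm9 chromosome 18, 39570199 to 39650955, minus strand), did not pass the test in any comparison. Its level was 11.5, 7.48 and 10.7 FPKM in the 3 control DMSO libraries and 9.26, 9.97 and 6.65 FPKM in control SR9009. KO-labelled cells had 10.4, 9.75 and 10.9 FPKM with DMSO and 8.25, 8.50 and 9.49 FPKM with SR9009. The low values were those of control DMSO replicate 2 and control SR9009 replicate 3, and the group means ran from 8.63 ± 1.75 FPKM (SD, n = 3) in control SR9009 to 10.3 ± 0.555 FPKM in KO-labelled DMSO. The log2 change on the log2(FPKM + 1) scale was 0.07 with deletion in DMSO (95% interval -0.26 to 0.41), -0.18 with SR9009 in control (-0.51 to 0.16) and -0.22 with SR9009 in KO-labelled cells (-0.55 to 0.12). The adjusted p from limma was 0.782, 0.568 and 0.442. In KO-labelled cells the DMSO and SR9009 libraries did not overlap, as was the case for 32.3% of all tested genes.

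**Figure D2:**
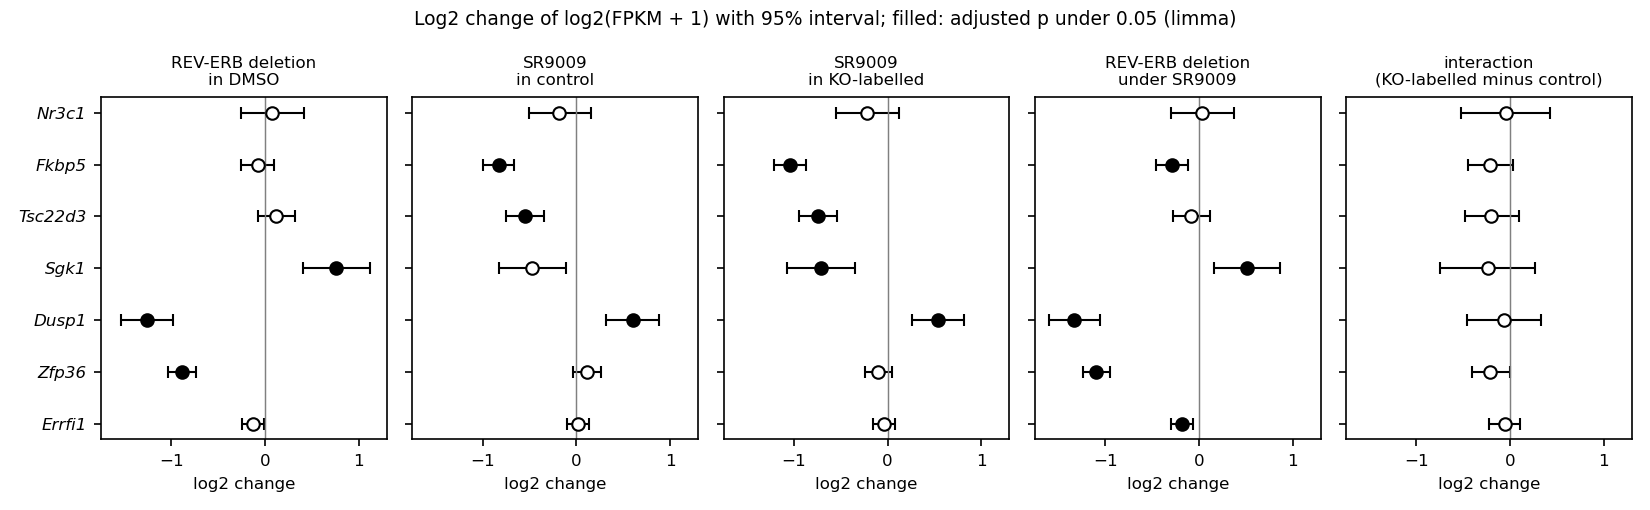
Log2 change of each gene (horizontal axis, log2(FPKM + 1) scale) with its 95% interval in the 4 comparisons and in their interaction; filled points passed an adjusted p of 0.05 in limma. Fkbp5 and Tsc22d3 lie left of 0 with SR9009 in both genotypes, Dusp1 and Zfp36 lie left of 0 in both deletion comparisons, and no point is filled for the interaction.

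The feedback co-chaperone Fkbp5 (ENSMUSG00000024222, mm9 chromosome 17, 28536040 to 28654469, minus strand) fell with SR9009 in both genotypes. Its level was 74.6, 78.2 and 72.9 FPKM in control DMSO and 39.9, 45.3 and 40.5 FPKM in control SR9009. KO-labelled cells had 69.9, 68.2 and 74.6 FPKM with DMSO and 30.2, 34.5 and 37.5 FPKM with SR9009. Every SR9009 library thus lay below every DMSO library, and the libraries of the 2 DMSO groups overlapped. The means fell 1.8-fold in control (75.2 ± 2.70 to 41.9 ± 2.92 FPKM; log2 change -0.83, SE 0.08, limma adjusted p = 7.06e-05) and 2.08-fold in KO-labelled cells (70.9 ± 3.33 to 34.1 ± 3.65 FPKM; log2 change -1.04, SE 0.08, adjusted p = 1.21e-05). By unadjusted p it ranked 29 and 14 among the 11213 genes.

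In DMSO the log2 change of Fkbp5 with deletion was -0.08 (95% interval -0.26 to 0.09, limma adjusted p = 0.496). Under SR9009 it was -0.29 (adjusted p = 0.019) and the groups did not overlap, as was the case for 34.9% of all tested genes. That last call ended without control SR9009 replicate 2 (adjusted p = 0.0689), without KO-labelled SR9009 replicate 1 (0.0744) and in the fit to the 2 groups alone (0.0835). The SR9009 effects of the genotypes differed by -0.21 (-0.45 to 0.03, adjusted p = 0.737). The model of Fkbp5 overlaps a 7SK gene on the opposite strand by 288 bp, whose level was at most 0.231 FPKM.

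Tsc22d3 (ENSMUSG00000031431, mm9 chromosome X, 137074067 to 137135198, minus strand), the gene of GILZ, also fell with SR9009 in both genotypes. It stood at 14.3, 16.0 and 14.2 FPKM in control DMSO and at 10.2, 10.4 and 8.99 FPKM in control SR9009. In KO-labelled cells it stood at 17.3, 17.3 and 14.2 FPKM with DMSO and at 8.70, 9.37 and 9.78 FPKM with SR9009. Again all 6 SR9009 libraries lay below all 6 DMSO libraries. SR9009 lowered it by 33.6% in control (log2 change -0.55, SE 0.09, limma adjusted p = 0.00339) and by 42.8% in KO-labelled cells (log2 change -0.74, SE 0.09, adjusted p = 0.000372). Deletion gave log2 changes of 0.12 in DMSO (95% interval -0.08 to 0.32, adjusted p = 0.406) and -0.08 under SR9009 (-0.28 to 0.12, adjusted p = 0.614). The SR9009 effects of the genotypes differed by -0.20 (-0.48 to 0.09, adjusted p = 0.825).

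Over the 12 libraries, log2 levels of Fkbp5 and Tsc22d3 had a Pearson r of 0.94, given as a description, since the libraries form 4 groups of 3. With the same libraries, r was 0.52 for Fkbp5 and Sgk1 and -0.20 for Fkbp5 and Dusp1.

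The kinase gene Sgk1 (ENSMUSG00000019970, mm9 chromosome 10, 21601990 to 21719709, plus strand) had the lowest level of the 7 and was highest in KO-labelled DMSO cells. Its level was 7.04, 6.39 and 6.66 FPKM there and 3.31, 3.31 and 4.08 FPKM in control DMSO. With SR9009 it was 3.24, 3.55 and 4.41 FPKM in KO-labelled and 1.47, 3.13 and 2.51 FPKM in control cells. Control DMSO and KO-labelled SR9009 overlapped, and the lowest value came from control SR9009 replicate 1, the shallowest library. Deletion raised Sgk1 1.88-fold in DMSO (3.57 ± 0.446 to 6.70 ± 0.330 FPKM; log2 change 0.76, SE 0.16, limma adjusted p = 0.00653), and SR9009 lowered it 1.79-fold in KO-labelled cells (to 3.73 ± 0.603 FPKM; log2 change -0.71, SE 0.16, adjusted p = 0.0174).

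In control cells the log2 change of Sgk1 with SR9009 was -0.47 (95% interval -0.83 to -0.11, limma adjusted p = 0.114), which passed only without control SR9009 replicate 2 (adjusted p = 0.0373). The difference between the SR9009 effects was -0.24 (-0.75 to 0.27, adjusted p = 0.891). The fall in KO-labelled cells no longer passed without KO-labelled DMSO replicate 1 or 3 (adjusted p = 0.0606 and 0.0543) or without KO-labelled SR9009 replicate 1 or 2 (0.0798 and 0.0643). Under SR9009, deletion raised Sgk1 by 0.51 on the log2 scale (adjusted p = 0.0452). That call ended in 16 of 22 alternatives, among them the omission of any library other than control SR9009 replicate 2 (adjusted p = 0.0523 to 0.164). Without control SR9009 replicate 1 the change was 0.31.

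Dusp1 (ENSMUSG00000024190, mm9 chromosome 17, 26642535 to 26645464, minus strand), the MAP kinase phosphatase, answered to genotype and to SR9009 in opposite directions. It stood at 43.7, 52.2 and 46.7 FPKM in control DMSO and at 19.8, 20.2 and 17.7 FPKM in KO-labelled DMSO. With SR9009 it stood at 82.1, 72.9 and 63.6 FPKM in control and at 25.7, 35.2 and 25.1 FPKM in KO-labelled cells. None of the 4 groups overlapped another, in the order control SR9009, control DMSO, KO-labelled SR9009, KO-labelled DMSO. Deletion lowered the mean 2.47-fold in DMSO (47.6 ± 4.27 to 19.2 ± 1.36 FPKM; log2 change -1.26, SE 0.13, limma adjusted p = 2.10e-05) and 2.54-fold under SR9009 (72.9 ± 9.27 to 28.6 ± 5.65 FPKM; log2 change -1.33, SE 0.13, adjusted p = 1.36e-05).

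SR9009 raised Dusp1 1.53-fold in control (log2 change 0.60, SE 0.13, limma adjusted p = 0.013) and 1.49-fold in KO-labelled cells (log2 change 0.54, SE 0.13, adjusted p = 0.0193), with a difference of -0.06 between the genotypes (95% interval -0.46 to 0.33, adjusted p = 0.971). The call in control ended without control DMSO replicate 1 (adjusted p = 0.0593) and without control SR9009 replicate 1 (0.051). The call in KO-labelled cells ended without KO-labelled DMSO replicate 3 (0.0769), without KO-labelled SR9009 replicate 2 (0.0639) and with no filter on low values (0.0576).

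Zfp36 (ENSMUSG00000044786, mm9 chromosome 7, 29161803 to 29164274, minus strand), which encodes tristetraprolin, fell with deletion and did not pass with SR9009. Its level was 60.8, 62.3 and 63.4 FPKM in control DMSO and 72.8, 64.8 and 64.0 FPKM in control SR9009. KO-labelled cells had 35.3, 30.6 and 33.5 FPKM with DMSO and 29.5, 31.5 and 31.6 FPKM with SR9009. The 6 control libraries lay above the 6 KO-labelled ones by a wide gap, and within KO-labelled cells the treatments overlapped. Deletion lowered Zfp36 by 46.7% in DMSO (log2 change -0.89, SE 0.07, limma adjusted p = 1.58e-06) and by 54.1% under SR9009 (log2 change -1.10, SE 0.07, adjusted p = 2.60e-07). With SR9009 the log2 change was 0.11 in control (95% interval -0.04 to 0.26, adjusted p = 0.395) and -0.10 in KO-labelled cells (-0.24 to 0.05, adjusted p = 0.437). The difference between these was -0.21 (adjusted p = 0.711).

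Some markers of other liver cells moved in the comparisons in which Dusp1 and Zfp36 fell. Kupffer cells also express such early response genes. Of 8 tested among 10 of their markers, 4 fell and 1 rose with deletion in DMSO (8.32% and 11.7% over all genes). None of the 10 was at 0. Their summed level was 47.8 to 59.7 FPKM in control DMSO and 34.7 to 46.1 FPKM in KO-labelled DMSO. Under SR9009, 1 marker fell with deletion and 1 rose (7.43% and 12.9% over all genes). The sums were then 49.6 to 52.8 FPKM in control and 44.3 to 46.8 FPKM in KO-labelled cells. Much of this was Marco, a scavenger receptor, which fell from 9.52 ± 1.34 to 1.66 ± 0.462 FPKM in DMSO, while Cd68 rose from 18.3 ± 1.86 to 23.7 ± 2.95 FPKM. Without Marco, left out after its values were seen, the sums overlapped in DMSO (39.5 to 49.0 and 33.4 to 43.9 FPKM) and under SR9009 (40.1 to 42.3 and 41.6 to 45.4 FPKM).

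Of 3 tested among 6 endothelial markers, 2 rose with deletion in DMSO (11.7% over all genes), Stab1 (1.85 ± 0.304 to 4.16 ± 1.27 FPKM) and Lyve1 (1.29 ± 0.312 to 2.22 ± 0.486 FPKM). The sum of the list was 5.43 to 6.17 FPKM in control DMSO and 8.60 to 12.8 FPKM in KO-labelled DMSO. Under SR9009, 0 of the 3 passed with deletion, where 20.4% of all genes were called. The sums were then 5.85 to 6.95 FPKM in control and 8.27 to 8.73 FPKM in KO-labelled cells. Of 2 tested among 5 cholangiocyte markers, Sox9 rose from 2.67 ± 0.532 to 9.09 ± 1.37 FPKM and Spp1 fell from 39.9 ± 0.863 to 24.4 ± 3.09 FPKM, while Krt7 and Krt19, which define these cells, stayed at or below 0.0192 and 1.02 FPKM. The sum of that list was 42.1 to 44.7 FPKM in control DMSO and 29.1 to 38.8 FPKM in KO-labelled DMSO. Under SR9009, 1 of these markers rose and 1 fell with deletion (12.9% and 7.43% over all genes). The sums were then 39.4 to 61.7 FPKM in control and 34.5 to 38.7 FPKM in KO-labelled cells. Fewer cells of a type and less RNA per cell cannot be told apart in such bulk libraries, and the part of these cells in the results above was not tested.

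Errfi1 (ENSMUSG00000028967, mm9 chromosome 4, 150228028 to 150243001, plus strand), the gene of the EGF receptor inhibitor MIG6, was the most abundant of the 7 and changed by at most 0.18 on the log2 scale. It stood at 663, 647 and 654 FPKM in control DMSO and at 696, 688 and 605 FPKM in control SR9009. In KO-labelled cells it stood at 593, 609 and 593 FPKM with DMSO and at 583, 590 and 577 FPKM with SR9009. All 6 KO-labelled libraries lay below all control DMSO libraries, while control SR9009 replicate 3 came within the range of KO-labelled DMSO. The mean was lower with deletion by 8.62% in DMSO (log2 change -0.13, SE 0.05, limma adjusted p = 0.119, not called) and fell by 12.1% under SR9009 (log2 change -0.18, SE 0.05, adjusted p = 0.0326). SR9009 gave log2 changes of 0.02 in control (95% interval -0.10 to 0.13, adjusted p = 0.91) and -0.04 in KO-labelled cells (-0.16 to 0.08, adjusted p = 0.746).

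The genotype difference of Errfi1 sat near the threshold. Under SR9009 the call ended in 8 of 22 alternatives, including without control SR9009 replicate 1 or 2 (adjusted p = 0.106 and 0.0973) and without KO-labelled SR9009 replicate 1, 2 or 3 (0.0793, 0.072 and 0.0981). In DMSO it passed after median ratio scaling (log2 change -0.17, adjusted p = 0.0393), in the fit to the 2 groups alone (0.049) and without control SR9009 replicate 3 (0.0148). The model of Errfi1 overlaps 1700045H11Rik on the opposite strand by 1031 bp, whose level was at most 1.68 FPKM.

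The 7 genes showed no tested difference between genotypes in their response to SR9009. In the interaction term of the limma fit, 0 of 7 passed the adjusted threshold and 0 had an unadjusted p under 0.05, where 0.0268% of all genes were called (0.0178% higher and 0.00892% lower). The smallest unadjusted p was that of Zfp36 (0.0523). The 95% intervals were wide for Sgk1 (-0.75 to 0.27) and Nr3c1 (-0.52 to 0.43) and narrow for Errfi1 (-0.22 to 0.11). For these and for Zfp36 (-0.41 to 0), a difference as large as the SR9009 effect lay within the interval and was not detectable. The adjusted threshold was also strict: Ndrg1, with a difference of 0.59 (SE 0.10), did not pass (limma adjusted p = 0.0991). The SE of the difference was 0.13 for Tsc22d3 and 0.18 for Dusp1. For Tsc22d3 and Dusp1, a difference as large as the SR9009 effect in control (-0.55 and 0.60) could thus also have been missed.

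The DNA before the start sites of the targets was searched for a fixed list of motifs. The part of these motifs in the changes above was not tested. RefSeq start sites on GRCm38.p6, another build than that of the deposited table, gave 14 windows of 250 bases for 6 of the members. The full glucocorticoid response element (AGAACA and TGTTCT with 3 bases between them) occurred in 1 of these windows, before the fifth of 6 Sgk1 start sites, and in 3 of 32851 windows of all genes (0.00913%). A looser form (ACA and TGT with 3 bases between them, flanked at 1 base's distance by G on the left and C on the right), which includes the full one, was in the same Sgk1 window and in 0.387% of all windows. Its single arm, AGAACA on either strand, was in 4 member windows (3 of Sgk1 and 1 of Tsc22d3) and in 16.1% of all windows. It was not among the letters of the windows of Fkbp5, Dusp1, Zfp36 and Errfi1. Sgk1 had more windows than any other member, and DNA outside the 250 bases was not searched. A missing match thus does not show that a gene lacks the element.

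Other motifs differed between the targets. The cyclic AMP response element TGACGTCA was found before Dusp1 and the second Errfi1 start, and in 1.55% of all windows; its short form TGACG, which lies within it, was also found before Tsc22d3 and Sgk1 and in 17.8% of all windows. The serum response CArG box was found before Zfp36 and in 1.47% of all windows. The E-box CACGTG was found before Fkbp5, Dusp1 and the fifth Sgk1 start, and in 6.02% of all windows. The core of REV-ERB and ROR sites, AGGTCA, was found before the second and the third of the Sgk1 starts, and in 14.0% of all windows. For the Errfi1 starts, the second Tsc22d3 start and the third Sgk1 start, the bases that follow were found in no reference transcript. The Errfi1 and Tsc22d3 matches named here and the AGGTCA before the third Sgk1 start thus lie before less certain starts. All motifs were searched on both strands, and a match is a description of letters, not of binding.

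**Figure D3:**
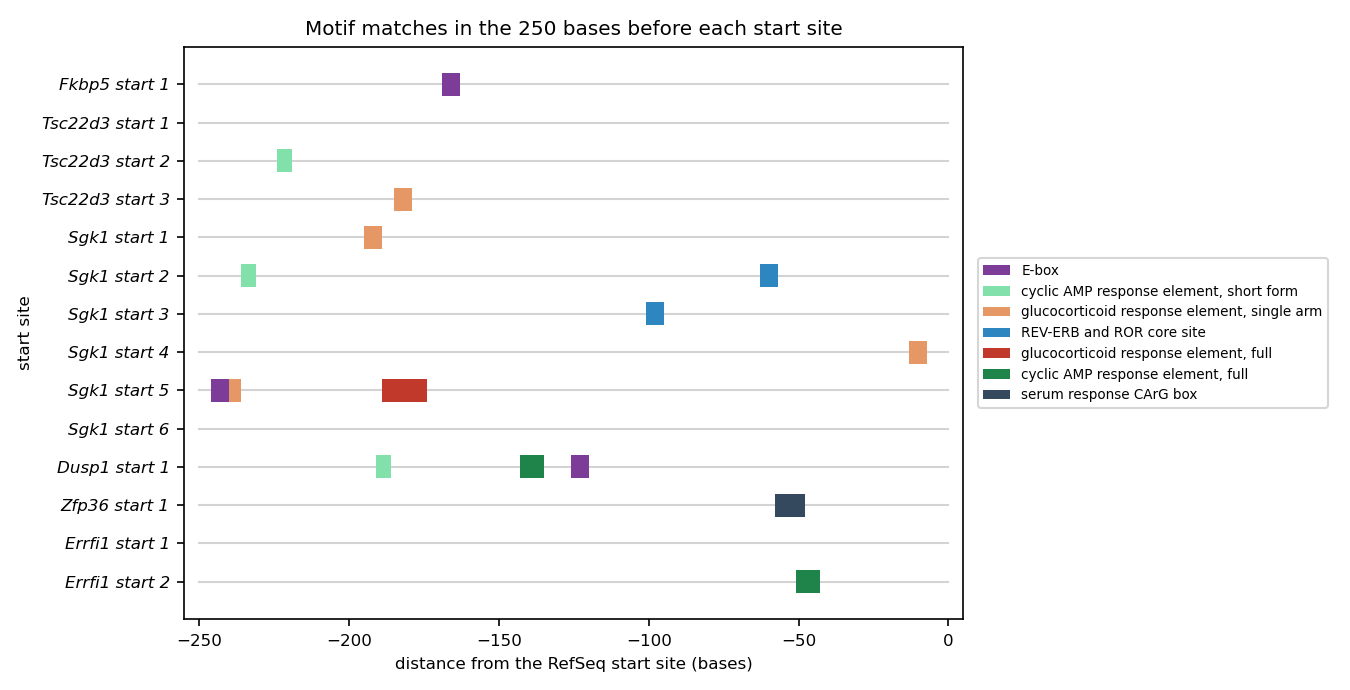
Positions of motif matches (coloured bars) in the 250 bases before each RefSeq start site of 6 members; the horizontal axis is the distance from the start site in bases and each row is a start site. The full glucocorticoid response element appears only before the fifth Sgk1 start, at -189 to -175, the CArG box before Zfp36 at -58 to -49 and the full cyclic AMP response element before Dusp1 at -143 to -136.

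The 4 windows below show these contrasts, 5′ to 3′ on the strand of the gene, with every motif match in capitals. In Sgk1 (GRCm38.p6, chr10:21993640-21993889, plus strand) the capitals mark an E-box running into a single arm, and then the full glucocorticoid response element, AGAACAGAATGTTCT. In Dusp1 (chr17:26508473-26508722, minus strand) they mark the short and the full cyclic AMP response element and the E-box. In Zfp36 (chr7:28379229-28379478, minus strand) they mark the CArG box, and in Fkbp5 (chr17:28486150-28486399, minus strand), the target that fell most with SR9009, a single E-box.
Sgk1: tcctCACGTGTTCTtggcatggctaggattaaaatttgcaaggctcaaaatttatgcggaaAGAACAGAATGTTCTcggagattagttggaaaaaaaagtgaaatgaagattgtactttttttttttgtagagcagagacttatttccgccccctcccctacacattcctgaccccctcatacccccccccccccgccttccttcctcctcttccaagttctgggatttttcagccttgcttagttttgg
Dusp1: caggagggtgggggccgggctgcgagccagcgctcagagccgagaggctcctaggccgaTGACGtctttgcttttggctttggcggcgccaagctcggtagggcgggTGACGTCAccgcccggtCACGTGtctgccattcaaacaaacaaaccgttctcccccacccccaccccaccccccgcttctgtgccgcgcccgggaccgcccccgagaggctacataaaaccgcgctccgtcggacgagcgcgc
Zfp36: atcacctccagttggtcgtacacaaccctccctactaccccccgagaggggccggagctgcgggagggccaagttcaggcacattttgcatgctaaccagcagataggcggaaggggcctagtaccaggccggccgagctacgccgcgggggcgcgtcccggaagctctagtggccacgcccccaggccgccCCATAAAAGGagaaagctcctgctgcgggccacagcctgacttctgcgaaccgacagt
Fkbp5: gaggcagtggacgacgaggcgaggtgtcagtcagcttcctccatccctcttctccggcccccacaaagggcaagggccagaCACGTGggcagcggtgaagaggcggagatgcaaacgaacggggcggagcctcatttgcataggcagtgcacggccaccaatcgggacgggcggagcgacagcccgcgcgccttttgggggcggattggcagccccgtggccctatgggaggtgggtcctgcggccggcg

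Other glucocorticoid-induced genes of the liver moved in both directions. Of 24 such genes, all tested, SR9009 lowered 7 and raised 2 in control cells, where 4.55% of all genes fell and 3.69% rose. In KO-labelled cells it lowered 12 and raised 2, where 4.56% fell and 5.32% rose. Tdo2, the tryptophan dioxygenase, fell from 176 ± 10.7 to 113 ± 3.25 FPKM in control (limma adjusted p = 0.000234) and from 377 ± 21.2 to 260 ± 22.5 FPKM in KO-labelled cells (adjusted p = 0.000574). Ddit4, which restrains mTORC1, fell from 19.8 ± 0.595 to 14.5 ± 0.309 FPKM and from 16.0 ± 1.11 to 9.42 ± 0.952 FPKM. Tat, tyrosine aminotransferase, a classical receptor target, fell from 346 ± 28.5 to 251 ± 2.67 FPKM in control (limma adjusted p = 0.00887). In KO-labelled cells it fell from 327 ± 38.2 to 175 ± 17.2 FPKM (adjusted p = 7.77e-05). G6pc, the last enzyme of glucose release, went the other way and rose from 28.2 ± 2.24 to 54.0 ± 8.46 FPKM in control and from 78.9 ± 1.52 to 176 ± 8.26 FPKM in KO-labelled cells. The median log2 change of the 24 genes was -0.22 and -0.27, beside -0.02 and 0.00 over all genes.

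The same genes were split by deletion. In DMSO, 7 of the 24 rose and 7 fell, with a median of 0.00, where 11.7% of all genes rose and 8.32% fell. Under SR9009, 7 rose and 10 fell, with a median of -0.10, where 12.9% rose and 7.43% fell. Those that rose in DMSO included Cdkn1a, the cell cycle inhibitor p21 (147 ± 6.84 to 209 ± 3.50 FPKM, limma adjusted p = 1.25e-05), and those that fell included Sds, serine dehydratase, which was also lower under SR9009 (45.7 ± 3.92 to 25.5 ± 0.307 FPKM, adjusted p = 2.85e-06). Several of these genes are repressed by REV-ERB or respond to other hormones too, so the list is not specific to the receptor. Of 7 hepatocyte markers, 3 fell and 0 rose with SR9009 in each genotype, where 4.55% of all genes fell in control and 4.56% in KO-labelled cells. Hnf4a, a regulator of liver genes, was at 254 ± 6.08 FPKM in control DMSO and 193 ± 21.0 FPKM in control SR9009, and the part of this in the falls above was not tested.

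**Figure D4:**
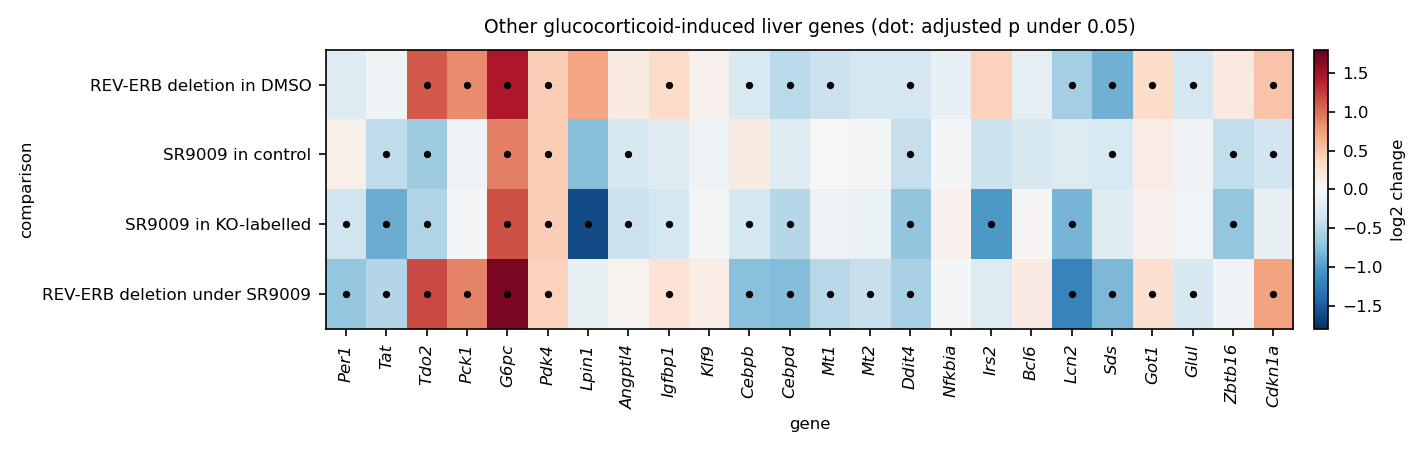
Log2 change (colour, log2(FPKM + 1) scale) of 24 other glucocorticoid-induced liver genes (columns) in 4 comparisons (rows); dots mark an adjusted p under 0.05 in limma. With SR9009 in KO-labelled cells 12 genes are marked as lower and 2, G6pc and Pdk4, as higher.

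Of 12 tested coregulators of the receptor, limma called 0 in any of the 4 comparisons, and 1 had an unadjusted p under 0.05 in each. Of 10 chaperones and co-chaperones, 0 passed with SR9009 in control (2 with an unadjusted p under 0.05), and 4 rose in KO-labelled cells, where 5.32% of all genes rose: Hsp90aa1 (82.9 ± 4.27 to 110 ± 13.9 FPKM), Hspa8 (468 ± 10.7 to 586 ± 26.3 FPKM), Ptges3, the p23 co-chaperone, and Ppid. No difference between the genotypes was called: 0 of the 10 passed in the interaction, 1 with an unadjusted p under 0.05. Hsp90aa1 fell with deletion in DMSO (106 ± 8.45 to 82.9 ± 4.27 FPKM, adjusted p = 0.012), and Hspa8 rose with deletion under SR9009 (523 ± 8.13 to 586 ± 26.3 FPKM, adjusted p = 0.0242). Hspa8 has processed copies in the genome, so its level is uncertain. Fkbp4, the co-chaperone that competes with the product of Fkbp5, was at 40.1 ± 1.54 FPKM in control DMSO and 38.2 ± 2.11 FPKM in control SR9009, with a log2 change of -0.07 (adjusted p = 0.617).

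Of 7 tested among 9 genes that supply or carry the hormone, SR9009 raised 1 and lowered 1 in each genotype. Over all genes, 3.69% rose and 4.55% fell in control, and 5.32% rose and 4.56% fell in KO-labelled cells. H6pd, which provides the cofactor for corticosterone regeneration in the endoplasmic reticulum, fell from 180 ± 7.31 to 135 ± 21.9 FPKM in control (limma adjusted p = 0.0177) and from 226 ± 0.667 to 161 ± 7.05 FPKM in KO-labelled cells (adjusted p = 0.00663). Abcb1a, an exporter that carries steroids among its substrates, rose from 4.80 ± 0.436 to 10.6 ± 0.912 FPKM and from 5.54 ± 0.370 to 10.8 ± 0.438 FPKM. Serpina6, the corticosteroid-binding globulin of plasma, fell with deletion from 74.2 ± 4.80 to 42.1 ± 1.42 FPKM in DMSO (adjusted p = 3.49e-06) and was likewise lower under SR9009 (70.3 ± 4.10 and 39.4 ± 2.23 FPKM, adjusted p = 2.71e-06). Hsd11b1, which regenerates active hormone, was at 192 ± 38.0 FPKM in control DMSO and 172 ± 6.23 FPKM in control SR9009 (adjusted p = 0.715).

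Of the 3 other TSC22 genes, limma called 0 with SR9009 in either genotype, and 1 had an unadjusted p under 0.05 in each. Over all genes, 8.24% were called in control and 9.87% in KO-labelled cells. With deletion, 0 passed in DMSO and 1 rose under SR9009, where 12.9% of all genes rose. This was Tsc22d4 (2.75 ± 0.560 to 3.83 ± 0.394 FPKM, adjusted p = 0.0322). Without the 2 shallowest libraries, 1 of the 3 also fell with SR9009 in control. Zfp36l2, a relative of Zfp36, fell with SR9009 from 21.2 ± 0.373 to 13.9 ± 1.59 FPKM in control (adjusted p = 0.00114) and from 22.3 ± 1.12 to 12.3 ± 0.837 FPKM in KO-labelled cells (adjusted p = 9.33e-05), and did not pass with deletion in DMSO (log2 change 0.07, adjusted p = 0.631). Zfp36l1 rose with deletion in DMSO from 118 ± 6.25 to 141 ± 13.4 FPKM (adjusted p = 0.0494). Of 8 tested among 9 other MAP kinase phosphatases, 2 fell and 1 rose with deletion in DMSO (8.32% and 11.7% over all genes). Under SR9009, 1 fell and 2 rose with deletion (7.43% and 12.9%). SR9009 raised 2 in control and 3 in KO-labelled cells (3.69% and 5.32%) and lowered 0. Dusp16 rose with deletion in DMSO (24.1 ± 2.73 to 29.9 ± 2.01 FPKM, adjusted p = 0.0491) and under SR9009 (adjusted p = 0.0261). Dusp10 fell with deletion in DMSO from 25.3 ± 4.66 to 12.6 ± 0.908 FPKM (adjusted p = 0.00409). It rose with SR9009 in KO-labelled cells to 22.6 ± 5.83 FPKM (adjusted p = 0.0233). In control cells it did not pass with SR9009 (log2 change 0.41, adjusted p = 0.228). Dusp5 rose with SR9009 in both genotypes, to 14.3 ± 0.347 FPKM in control and 11.9 ± 1.10 FPKM in KO-labelled cells.

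Around the kinase Sgk1, its relatives Sgk2 and Sgk3 passed in no comparison, with Sgk2 at 7.35 ± 0.560 FPKM and Sgk3 at 2.31 ± 0.0444 FPKM in control DMSO. Of 5 tested relatives and substrates of the kinase, 2 rose and 0 fell with deletion in DMSO (11.7% and 8.32% over all genes). Under SR9009, 1 rose with deletion (12.9%) and 0 fell. SR9009 raised 1 and lowered 0 in control (3.69% and 4.55%). It raised 1 and lowered 1 in KO-labelled cells (5.32% and 4.56%). Ndrg1, whose product is a substrate of the kinase, rose with deletion in DMSO from 6.14 ± 0.383 to 14.9 ± 0.404 FPKM (limma adjusted p = 1.69e-07). It also rose with SR9009, to 9.10 ± 0.357 FPKM in control and to 32.8 ± 1.52 FPKM in KO-labelled cells, where Sgk1 fell. Of the other substrates, Nedd4l rose with deletion in DMSO (8.03 ± 0.461 to 12.5 ± 0.835 FPKM, adjusted p = 0.000828) and did not pass with SR9009. Foxo3 fell with SR9009 in KO-labelled cells, as Sgk1 did (6.98 ± 1.98 to 3.97 ± 0.611 FPKM, adjusted p = 0.0354). Without the 2 shallowest libraries this fall was not called.

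Of 6 tested among 10 receptors and ligands of the EGF family, around Errfi1, SR9009 lowered 2 and raised 1 in control (4.55% and 3.69% over all genes) and lowered 3 and raised 1 in KO-labelled cells (4.56% and 5.32%). Areg and Tgfa passed in neither. The receptor Erbb3 fell from 25.7 ± 0.109 to 10.6 ± 1.70 FPKM in control (limma adjusted p = 0.000123) and from 30.6 ± 1.58 to 13.0 ± 2.42 FPKM in KO-labelled cells (adjusted p = 0.000107). The ligand Hbegf rose from 3.02 ± 0.229 to 5.79 ± 0.251 FPKM and from 1.76 ± 0.155 to 3.12 ± 0.124 FPKM, and like Dusp1 it was lower with deletion in DMSO (adjusted p = 0.000832). Egfr, the receptor that MIG6 inhibits, fell in KO-labelled cells from 132 ± 9.29 to 97.7 ± 1.67 FPKM (adjusted p = 0.0109).

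The immediate early genes, which serum, growth factors and stress induce along with Dusp1 and Zfp36, mostly fell with deletion as both of those did, and some rose with SR9009, as Dusp1 but not Zfp36 did. Of 11 tested among 12, 9 fell and 0 rose with deletion in DMSO, where 8.32% of all genes fell and 11.7% rose, with a median log2 change of -0.57. Under SR9009, 9 fell and 0 rose, where 7.43% fell and 12.9% rose, with a median of -0.53. With SR9009, 6 rose and 0 fell in control (3.69% and 4.55% over all genes) and 5 rose and 0 fell in KO-labelled cells (5.32% and 4.56%), with medians of 0.22 and 0.19. Without the 2 shallowest libraries, 4 rose in control. Egr1 fell with deletion under SR9009 from 28.2 ± 2.60 to 11.7 ± 1.11 FPKM (limma adjusted p = 2.08e-06) and Fos from 3.51 ± 0.677 to 1.02 ± 0.0709 FPKM (adjusted p = 6.74e-05). Fosl1, a partner of JUN in AP-1, rose with SR9009 from 33.6 ± 4.01 to 54.4 ± 4.66 FPKM in control (adjusted p = 0.00404) and from 24.5 ± 3.35 to 43.3 ± 5.42 FPKM in KO-labelled cells (adjusted p = 0.00131).

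**Figure D5:**
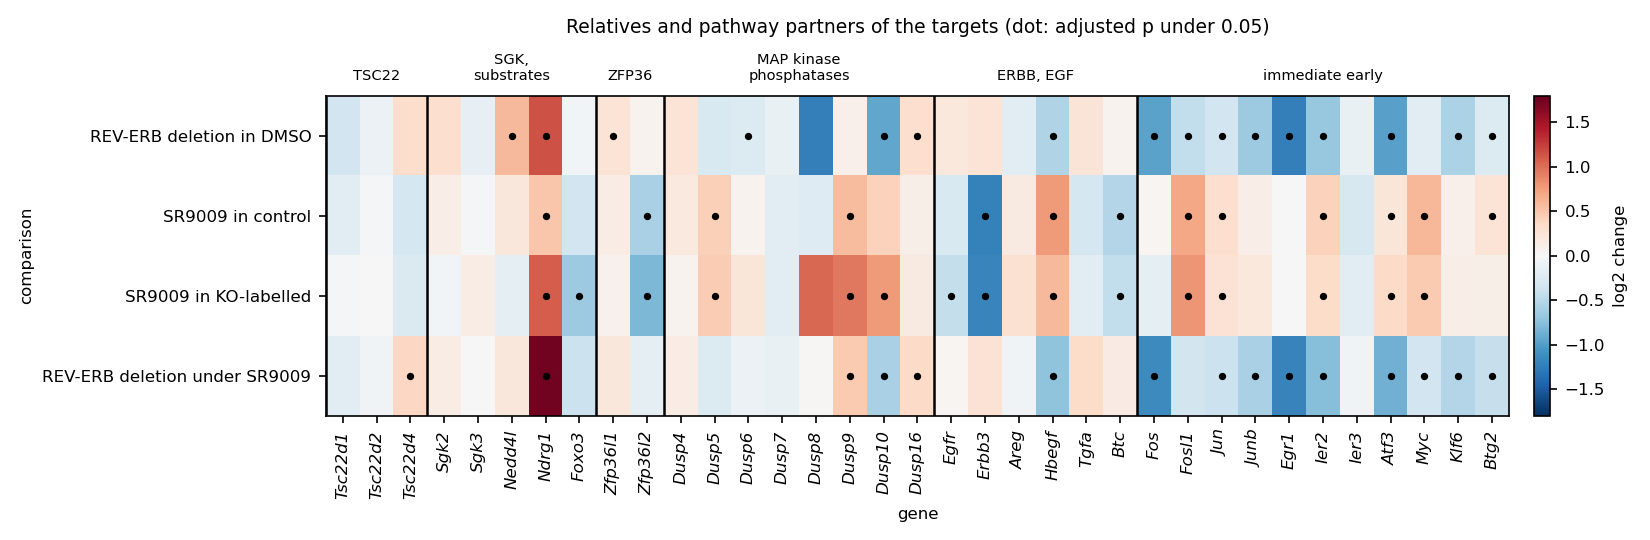
Log2 change (colour, log2(FPKM + 1) scale) of relatives and pathway partners of the targets (columns, grouped by family) in 4 comparisons (rows); dots mark an adjusted p under 0.05 in limma. Immediate early genes are marked as lower in both deletion comparisons (9 of 11 each) and Erbb3 and Zfp36l2 as lower with SR9009 in both genotypes.

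The genes whose levels most resembled each member were found by Pearson r over the 12 libraries on log2(FPKM + 1), among tested genes with a mean of at least 5 FPKM. Unnamed gene models (such as Gm, Rik and LOC symbols) and genes that overlap the member were passed over, so the ranks are among the remaining genes. The libraries fall into 4 groups, so a high r reflects mostly shared differences between groups. Fkbp5 was closest to Hpgd, which inactivates prostaglandins (r = 0.983), Cdc42ep4 (0.976) and Smoc1 (0.973). Hpgd fell with SR9009 from a mean of 71.7 to 24.3 FPKM in control and from 55.6 to 18.2 FPKM in KO-labelled cells. Tsc22d3 was closest to the ephrin receptor gene Epha1 (0.966), Zfp36l2 (0.961) and Mxd4, an antagonist of MYC (0.954). Sgk1 was closest to Reep4 (0.957), Dpagt1 (0.957) and Rasa3 (0.952).

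Dusp1 was closest to the transcription factor gene Mafk (r = 0.986), the transglutaminase gene Tgm2 (0.985) and the phosphatase gene Ptp4a1 (0.983). Tgm2 had means of 960 FPKM in control DMSO, 1462 in control SR9009, 361 in KO-labelled DMSO and 561 in KO-labelled SR9009, the same order of groups as Dusp1. Zfp36 was closest to Pltp, a phospholipid transfer protein (0.993), the GTPase gene Gbp2 (0.991) and the growth factor gene Nrg4 (0.991). Errfi1 was closest to Man2a2 (0.947), Dnajb4 (0.945) and Tob2 (0.942), and Nr3c1 to Hiatl1 (0.899), Aff1 (0.893) and Hipk3 (0.889). None of these last 3 passed in any comparison.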

How the data were processed

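The submitters' processing notes name HISAT2, StringTie and the mm9 build. Tool versions, gene annotation and strandedness are not stated in these sources. The authors deposited 1 table of values per gene and library, taken as FPKM because library sums differed (538521 to 604449) and the values are not whole; its header names no unit. With strandedness unknown, overlapping genes on opposite strands cannot be told apart.

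Values were transformed as log2(FPKM + 1) and the 11213 genes reaching 1 FPKM in 3 or more libraries were fitted with limma 3.58.1 in R 4.3.3 (a mean per group, 12 libraries, trend and robust variance), with Benjamini-Hochberg adjustment over all of them and a threshold of 0.05. Log2 changes understate the change of low genes. Errors after ± are SDs of 3 libraries. The fit was tested on simulated data. Total read numbers are unknown, so no counting interval is given.

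The members, lists and tests were chosen with earlier results of these data known. Named were the members, their overlapping genes, Nr1d1 and Nr1d2, up to 4 called genes per list and comparison, and the 3 genes most like each member; other list genes (the cell type markers, Areg, Tgfa, Pdk4, Fkbp4, Hsd11b1, Sgk2, Sgk3 and values of named genes in further comparisons) were chosen after their values were seen. Alternatives were other pseudocounts (0.1 and 0.5), filters, scalings and variance models, fits to 2 groups, a replicate block and leaving out libraries. Promoter windows come from RefSeq on GRCm38.p6, with start sites matched by symbol.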

Additional observations from a re-analysis of the deposited data

How the results depend on the processing

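Of 763 values of the 7 genes under 22 alternatives, 706 kept their direction and side of the threshold, 37 lost the call, 4 gained it and 16 changed sign, all 16 for changes that limma did not call. The changes of Fkbp5 and Tsc22d3 with SR9009 and of Dusp1 and Zfp36 with deletion kept their calls and directions in all 22 alternatives, and so did the rise of Sgk1 with deletion in DMSO. Under the filter of at least 5 FPKM, Sgk1 was kept only through its KO-labelled DMSO libraries (6.39 to 7.04 FPKM). That alternative thus cannot speak for the rise of Sgk1. The sign changes concerned Nr3c1 with deletion in DMSO (-0.10 to 0.19 when 1 library was left out), with deletion under SR9009 (-0.12 to 0.14, and -0.03 after quantile normalization and after median ratio scaling) and in the interaction (-0.20 to 0.13), Dusp1 in the interaction (-0.22 to 0.02) and Errfi1 with SR9009 in control (-0.02 to 0.08). Without the 2 shallowest libraries, an alternative chosen after seeing the data, they were 0.02 for Nr3c1 in the interaction, 0.05 for Dusp1 and -0.02 for Errfi1, and the rise of Dusp1 with SR9009 in control (log2 change 0.51, adjusted p = 0.0687) and the differences of Sgk1 (0.31, adjusted p = 0.14) and Errfi1 (-0.15, adjusted p = 0.13) under SR9009 were not called.

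The number of genes called with SR9009 in control was 924, against 376 in the fit to the 2 groups alone, 609 without the 2 shallowest libraries and 530 to 919 when 1 library was left out. With SR9009 in KO-labelled cells it was 1107, against 603 to 1438. With deletion in DMSO it was 2240, against 1607 to 2718, and under SR9009 2283, against 1651 to 2253, and 1518 in the fit to the 2 groups alone. The interaction gave 3 genes, against 1 with no filter, 1 after quantile normalization, 1 with no trend and no robust variance, 1 without the 2 shallowest libraries, 0 with the replicate block and 0 to 5 when 1 library was left out. A fit of the interaction to 2 groups is not defined. The fits with fewer libraries have fewer degrees of freedom, and the other causes were not tested.

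Replicate numbers are shared across groups, but samples with the same number did not deviate together (1 of 18 pairs had a correlation over 0.1, range -0.112 to 0.122, and 5 of 12 libraries were closest to their own number), so the block is only an alternative. With it, no call of the 7 genes changed, and 2 instead of 4 chaperones rose with SR9009 in KO-labelled cells. For Sgk1, the lowest of the 7, the log2 change with SR9009 in control, which was not called, ran from -0.63 to -0.26 over the alternatives.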
